A study of Mus musculus with 13 samples.

Results

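The homeostatic and purinergic receptors of microglia were followed here as 10 genes, all known as markers or receptors of microglia, the resident macrophages of the central nervous system. They were P2ry12, P2ry13, P2ry6, P2rx4, P2rx7, Entpd1, Cx3cr1, Gpr34, Siglech and Tmem119. They were taken by symbol, and 10 of 10 were found among the 39171 genes of the deposited expression table, which covers 13 RNA sequencing libraries. Cells came from the spinal cord of C57BL/6 mice and were purified by flow sorting. Astrocytes were taken by a green fluorescent protein that the astrocyte gene Aldh1l1 drives, and microglia by the surface protein CD11b, which other myeloid cells also carry. The mice lacked functional Il33 (IL-33 KO) or were littermate controls, called WT here. Il33 is the gene of the cytokine interleukin-33.

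The libraries formed 4 groups of biological replicates, per the series' design text. KO microglia had 3 libraries and WT microglia 3, all taken at postnatal day 12. KO astrocytes had 4 libraries, of which library 2 was from day 9 and the others from day 12. WT astrocytes had 3 libraries, of which library 3 was from day 9 and the others from day 12. The sex of the animals is not given in the labels. Values are FPKM, fragments scaled to transcript length and library size, so levels of different genes can be set side by side per length.

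The targeted gene was looked at first. Il33 stood at 96.3, 113 and 108 FPKM in the WT astrocyte libraries and at 2.28, 2.05, 0.424 and 0.733 FPKM in the KO astrocyte libraries. In microglia it stood at 0.299, 0 and 1.26 FPKM in WT and at 0.136, 0.00739 and 0 FPKM in KO. The genotype labels could therefore be read from the astrocytes, while microglia of either genotype held almost no Il33 RNA.

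Microglia survey tissue with fine processes and read nucleotides that other cells release. ATP opens P2X ion channels, ADP and UDP act on P2Y receptors coupled to G proteins, and the surface enzyme encoded by Entpd1 (CD39) cuts ATP and ADP down to AMP, which other enzymes turn into adenosine. Together with the receptor for the neuronal chemokine fractalkine and a few surface proteins of less certain function, several of these genes are used as signs of resting, or homeostatic, microglia, and their levels are known to drop when microglia become reactive.

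Of the 10 genes, 4 lie in 2 close pairs, and both pairs join genes of related function. P2ry12 (ENSMUSG00000036353, chromosome 3, 59216272 to 59262871) and P2ry13 (ENSMUSG00000036362, chromosome 3, 59207892 to 59210882) lie on the minus strand with a gap of 5.4 kb. P2rx7 (ENSMUSG00000029468, chromosome 5, 122643911 to 122691432) and P2rx4 (ENSMUSG00000029470, chromosome 5, 122707544 to 122729738) lie on the plus strand with a gap of 16.1 kb. These and all further coordinates are on GRCm38. The promoters of both pairs are shown because the pairs differed in how far their RNA was restricted to microglia. Each window runs from 250 bases before to 50 bases after a RefSeq transcript start (GRCm38.p6), 5′ to 3′ on the strand of the gene. Capitals mark the letters AGGAAG, a core that PU.1 and other ETS factors can bind, and GGGCGG, the GC box, on either strand. The windows are chr3:59262936-59263235 for P2ry12, chr3:59210833-59211132 for P2ry13, chr5:122643677-122643976 for the first of the P2rx7 starts and chr5:122707294-122707593 for P2rx4.
P2ry12: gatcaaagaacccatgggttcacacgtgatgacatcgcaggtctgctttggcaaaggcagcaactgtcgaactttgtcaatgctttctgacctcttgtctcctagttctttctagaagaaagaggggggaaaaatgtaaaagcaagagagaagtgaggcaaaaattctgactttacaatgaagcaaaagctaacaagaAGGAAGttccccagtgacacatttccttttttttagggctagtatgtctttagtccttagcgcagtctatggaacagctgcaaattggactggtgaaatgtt
P2ry13: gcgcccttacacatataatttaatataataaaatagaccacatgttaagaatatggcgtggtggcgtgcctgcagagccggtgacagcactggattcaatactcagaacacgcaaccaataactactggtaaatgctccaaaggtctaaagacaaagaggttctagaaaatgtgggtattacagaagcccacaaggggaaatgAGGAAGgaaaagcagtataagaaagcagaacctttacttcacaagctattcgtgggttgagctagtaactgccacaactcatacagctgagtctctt
P2rx7: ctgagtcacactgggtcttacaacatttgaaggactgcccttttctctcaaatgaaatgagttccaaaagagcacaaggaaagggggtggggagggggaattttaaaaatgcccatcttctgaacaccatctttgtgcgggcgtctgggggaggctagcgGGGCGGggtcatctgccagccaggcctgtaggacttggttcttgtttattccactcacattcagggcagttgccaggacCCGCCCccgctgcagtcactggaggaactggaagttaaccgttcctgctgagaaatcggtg
P2rx4: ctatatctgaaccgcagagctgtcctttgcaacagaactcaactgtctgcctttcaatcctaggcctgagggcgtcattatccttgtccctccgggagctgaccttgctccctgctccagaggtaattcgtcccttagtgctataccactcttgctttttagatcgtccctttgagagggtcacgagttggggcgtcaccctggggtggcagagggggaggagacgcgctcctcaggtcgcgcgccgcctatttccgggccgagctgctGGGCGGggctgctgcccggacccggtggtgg

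The P2ry12 and P2ry13 windows each held 1 AGGAAG, at positions −52 and −47 from the start, and no GC box. The first P2rx7 window held 2 GC boxes and the P2rx4 window held 1, and neither held AGGAAG. GC content was 42.3% in both P2Y windows, 53.3% in the first P2rx7 window and 60.3% in the P2rx4 window, against a median of 52.67% over 32851 mouse promoters of the same length. CpG dinucleotides numbered 4 in P2ry12, 6 in P2ry13, 8 in P2rx7 and 18 in P2rx4, where the median promoter held 7. RefSeq promoters were matched for 7 of the 10 genes, as 9 windows. A second P2rx7 window, chr5:122650133-122650432, held 2 AGGAAG and no GC box. The Cx3cr1 (chr9:120068247-120068546) and Siglech (chr7:55767934-55768233) windows held neither. Of the 2 Entpd1 windows, chr19:40659520-40659819 held 2 overlapping AGGAAG and chr19:40612116-40612415 held neither. AGGAAG occurred in 35.35% and GGGCGG in 35.66% of all 32851 promoters, counted on both strands. A match of letters is a description of the window, and gene-level FPKM do not show which start was used.

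The remaining genes lie apart from each other. P2ry6 (ENSMUSG00000048779) is on chromosome 7, 100937630 to 100974649, and Siglech (ENSMUSG00000051504) is on chromosome 7, 55768178 to 55778925. Cx3cr1 (ENSMUSG00000052336) is on chromosome 9, 119901616 to 120069879, and Tmem119 (ENSMUSG00000054675) is on chromosome 5, 113793729 to 113800516. Gpr34 (ENSMUSG00000040229) is on chromosome X, 13632089 to 13640858. Entpd1 (ENSMUSG00000048120) is on chromosome 19, 40612366 to 40741602, 10.7 Mb from Il33. Some gene models overlap others, and whether the counting used strand is not given in the sources used here. Med12l, on the opposite strand, shares 9 exonic bases (0.4%) with P2ry12, and Gm33858, an antisense gene, shares 78 exonic bases (1.7%) with Cx3cr1. Mir8115 shares 119 exonic bases (2%) with P2rx7 on the same strand. Gpr34 lies within Cask, on the opposite strand, with no shared exonic base, and Cask was the more abundant of the pair in astrocytes, at a mean of 79.9 FPKM.

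A few facts of the whole series bear on these genes. Between 22002 and 24035 genes were above 0 in a microglia library and between 16633 and 18834 in an astrocyte library. Read numbers are not known, but the spacing of low values put the depth of the other 5 microglia libraries at 73.0% to 85.7% of KO microglia 2. The 10 microglia markers used as a yardstick, among them C1qa, C1qb, C1qc, Csf1r, Itgam, Aif1, Ctss, Fcrls and Cd68, summed to 10119 to 12372 FPKM in microglia and to 7.50 to 83.3 FPKM in astrocytes. The 10 astrocyte markers summed to 6277 to 10905 FPKM in astrocytes, although Slc1a2 was listed at 0 in WT astrocytes 1 and KO astrocytes 3, and to 74.9 to 121 FPKM in microglia. The 8 oligodendrocyte markers summed to 4530 to 8160 FPKM in astrocytes and to 1069 to 2632 FPKM in microglia. Astrocyte libraries thus held much oligodendrocyte RNA, and its part in the differences between cell types was not tested. Xist, the RNA that silences an X chromosome in female cells, stood at 268 and 283 FPKM in WT microglia 1 and 2 and at 0.713 FPKM or less in the other 4 microglia libraries. In bulk RNA, fewer cells of a type and less RNA per cell cannot be told apart.

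In WT microglia, P2ry12 was the most abundant of the 10 genes and P2rx4 the least. P2ry12 encodes the ADP receptor that draws microglial processes toward released nucleotide. It held 1113, 1419 and 1705 FPKM in WT libraries 1, 2 and 3, a mean of 1412 ± 296 (SD, n = 3), and 1243, 1391 and 1218 FPKM in KO libraries 1, 2 and 3, a mean of 1284 ± 93.8 (SD, n = 3). Over the 6 microglia libraries it ranked between 24 and 40 among 21301 protein-coding genes. The KO values lay inside the WT range.

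P2ry13, a second ADP receptor gene, held 364, 423 and 433 FPKM in WT microglia and 380.4, 423 and 398 FPKM in KO microglia, so that every KO value lay within the WT range. P2ry6 encodes a UDP receptor linked to phagocytosis. It held 147, 142 and 90.5 FPKM in WT and 139.5, 161 and 181 FPKM in KO. WT library 3 was the lowest of the 6 and the groups overlapped.

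The ion channel genes P2rx7 and P2rx4 were the 2 lowest of the set in microglia. P2rx7 encodes the channel that needs high ATP and leads to inflammasome activation, and it held 99.3, 79.8 and 64.3 FPKM in WT and 74.6, 99.6 and 74.7 FPKM in KO. P2rx4, the channel gene known from spinal microglia after nerve injury, held 25.6, 22.8 and 19.3 FPKM in WT (mean 22.6 ± 3.12, SD, n = 3) and 33.5, 32.9 and 28.1 FPKM in KO (mean 31.5 ± 2.95, SD, n = 3). For P2rx7 the groups overlapped, and for P2rx4 each KO library lay above each WT library.

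Entpd1, the gene of the ATP- and ADP-cutting enzyme, varied most among the WT libraries. It held 782, 239 and 302 FPKM in WT microglia 1, 2 and 3 (mean 441 ± 297, SD, n = 3) and 501, 423 and 461 FPKM in KO (mean 462 ± 38.7, SD, n = 3). WT library 1 was the highest and WT library 2 the lowest of the 6. The border macrophage markers, 9 of 10 of which passed the filter, also summed highest in that library, at 1754 FPKM, against 1022.5 and 848 FPKM in WT 2 and 3 and 777 to 881 FPKM in KO, and the neuron markers summed to 56.4 FPKM there against 12.6 FPKM or less in the other 5. Monocyte and neutrophil markers also summed highest in WT library 1, at 71.1 and 264 FPKM, against at most 39.9 and 234 FPKM in the other 5. Of the border macrophage markers Cd209f was listed at 0 in 1 microglia library. The part of these cells in the Entpd1 values was not tested.

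Cx3cr1 encodes the fractalkine receptor and was second to P2ry12. It held 579, 717 and 677 FPKM in WT (mean 658 ± 71.0, SD, n = 3) and 571, 568 and 544 FPKM in KO (mean 561 ± 14.7, SD, n = 3). Each KO library lay below each WT library, and the nearest pair was WT 1 and KO 1. Siglech encodes a member of the sialic acid-binding lectin family that signals through the adaptor made from Tyrobp. It held 326, 351 and 385 FPKM in WT (mean 354 ± 29.7, SD, n = 3) and 395, 497 and 429 FPKM in KO (mean 440.0 ± 52.1, SD, n = 3). All 3 KO libraries lay above the WT libraries.

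Gpr34, the gene of a receptor for lysophosphatidylserine, held 175, 227 and 246 FPKM in WT and 224, 209.6 and 180.1 FPKM in KO, with the KO values inside the WT range. Tmem119, a membrane protein gene used to tell microglia from other macrophages, held 559, 393 and 233 FPKM in WT (mean 395 ± 163, SD, n = 3) and 530.2, 585 and 524 FPKM in KO (mean 547 ± 33.8, SD, n = 3). WT libraries 2 and 3 lay below all KO libraries, and WT library 1 lay within the KO range.

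**Figure D1:**
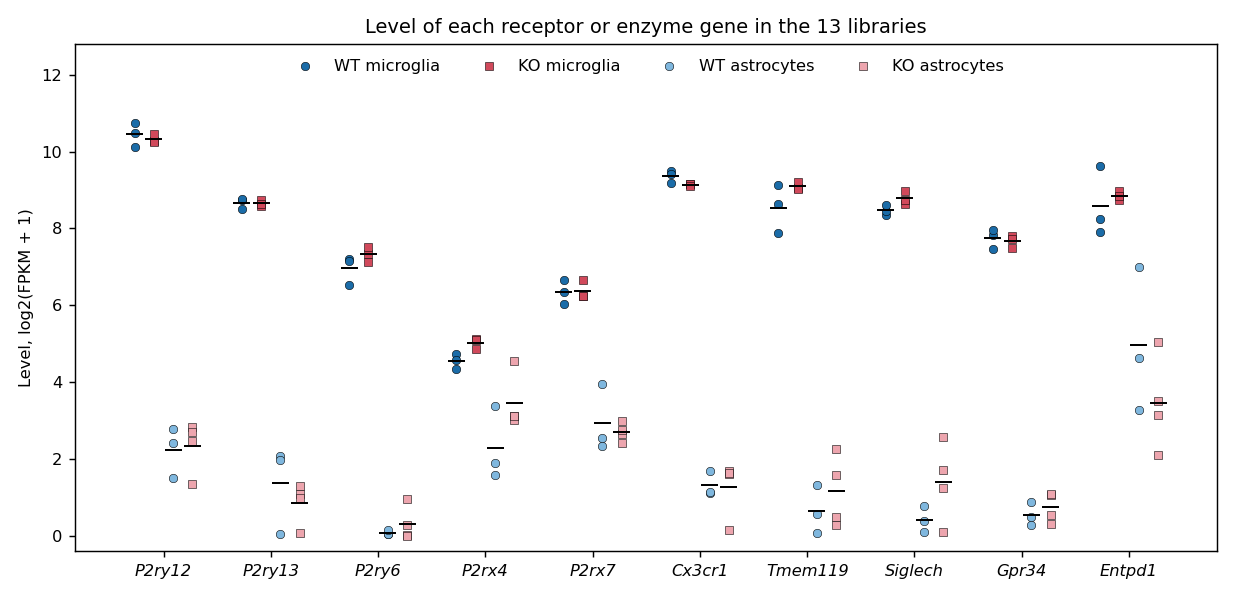
Level of each of the 10 genes in all 13 libraries, as log2(FPKM + 1); each point is 1 library, coloured by cell type and genotype, and the bar is the mean of the group on this scale. The mean of microglia lies above that of astrocytes for each gene; single libraries overlap only for P2rx4, where KO astrocytes 1 (22.4 FPKM) lies above WT microglia 3 (19.3 FPKM), and KO and WT points of a cell type lie close to or among each other.

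Ordered by mean, WT microglia ran P2ry12, Cx3cr1, Entpd1, P2ry13, Tmem119, Siglech, Gpr34, P2ry6, P2rx7 and P2rx4. The library values of P2ry12 and Cx3cr1 did not overlap, nor did those of Siglech and Gpr34, of Gpr34 and P2ry6, or of P2rx7 and P2rx4. Neighbours from Cx3cr1 to Siglech overlapped, as did P2ry6 and P2rx7. KO microglia ran P2ry12, Cx3cr1, Tmem119, Entpd1, Siglech, P2ry13, Gpr34, P2ry6, P2rx7 and P2rx4, with Tmem119 in the third place instead of the fifth and Siglech before P2ry13. First and last places and the order of the 4 lowest genes were the same in both genotypes.

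KO and WT microglia were compared to ask whether loss of interleukin-33 from the cord was accompanied by a different level of these receptors. None of the 10 genes passed the test (limma on log2(FPKM + 1), Benjamini-Hochberg adjusted p under 0.05 over 15889 genes), and 1 of 10, P2rx4, had an unadjusted p under 0.05. Over all genes tested 0.0818% passed and 7.96% had an unadjusted p under 0.05. The median difference of the 10 genes was 0.15 on the log2 scale, against 0.023 over all genes. The authors' deposited table for microglia holds 483 genes, all with an adjusted p under 0.05, and lists 0 of the 10.

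P2rx4 differed by 0.47 on the log2 scale in KO against WT microglia (SE 0.17, 95% interval 0.046 to 0.89, limma adjusted p = 0.596). Siglech differed by 0.31 (SE 0.16, interval −0.075 to 0.69, limma adjusted p = 0.643) and Cx3cr1 by −0.22 (SE 0.15, interval −0.58 to 0.13, limma adjusted p = 0.717). In these 3 genes the groups did not overlap, with 2 higher and 1 lower in KO, and the exact two-sided permutation test gave p = 0.1 for each, the smallest that 3 against 3 libraries allow. Groups did not overlap for 15.9% of all genes tested (8.41% higher and 7.48% lower in KO). Under quantile normalisation Siglech differed by 0.49 and Cx3cr1 by −0.0066. Among libraries with Xist under 1 FPKM, WT microglia 3 and the 3 KO libraries, P2rx4 differed by 0.67 and Siglech by 0.18, and 0 of the 10 passed.

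Tmem119 had the largest difference, 0.55 (SE 0.33, interval −0.25 to 1.36, limma adjusted p = 0.687), which was 0.22 without WT microglia 3, 0.85 without WT microglia 1 and 1.22 among libraries with Xist under 1 FPKM. P2ry6 differed by 0.36 (interval −0.22 to 0.94), which was 0.14 without WT microglia 3 and 0.81 among libraries with Xist under 1 FPKM, and Entpd1 by 0.26 (interval −0.84 to 1.36). The Entpd1 difference was 0.77 without WT microglia 1 and −0.079 without WT microglia 2. P2rx7 (0.041, interval −0.50 to 0.59), P2ry13 (−0.020, interval −0.37 to 0.33), Gpr34 (−0.071, interval −0.53 to 0.39) and P2ry12 (−0.12, interval −0.61 to 0.38) had estimates near 0. Among libraries with Xist under 1 FPKM they lay farther from 0, at 0.35 for P2rx7, −0.11 for P2ry13, −0.27 for Gpr34 and −0.41 for P2ry12. The intervals hold for single genes before adjustment and are not limits of detection. That of P2rx4 excluded 0, yet P2rx4 did not pass the limma test with 3 libraries a group.

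**Figure D2:**
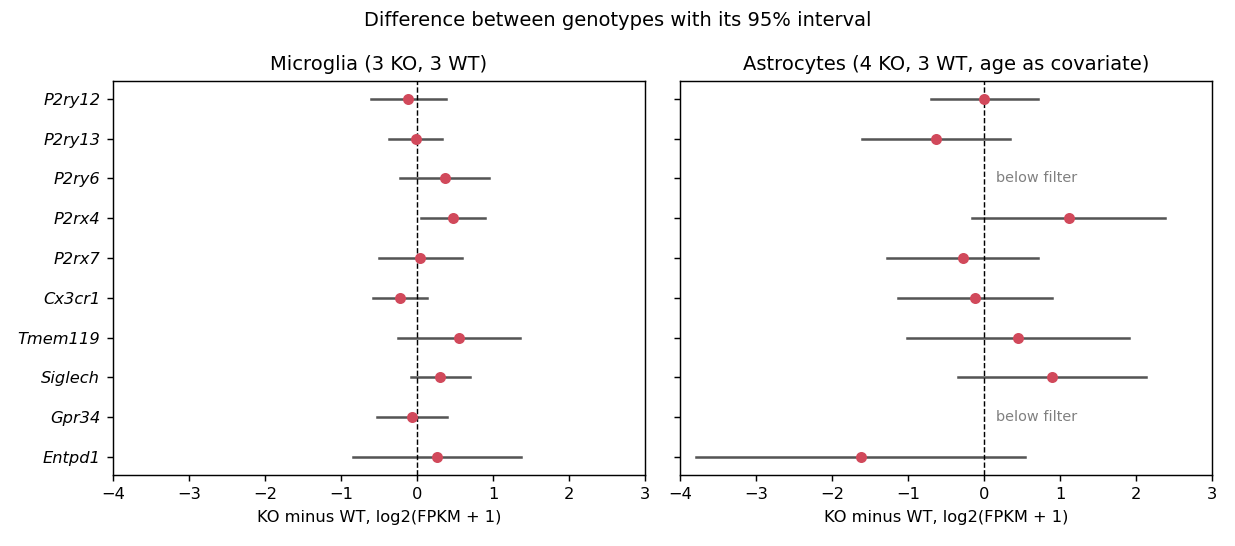
Difference between KO and WT on the log2(FPKM + 1) scale with its 95% interval, in microglia (left) and in astrocytes with age as a covariate (right). In microglia the interval of P2rx4 (0.046 to 0.89) excludes 0 before adjustment over all genes; in astrocytes each interval drawn holds 0, and P2ry6 and Gpr34 were under the filter.

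Marker and handling lists were also read in the microglia libraries. Of 12 immediate-early genes, 8 oligodendrocyte markers and the 7 neutrophil markers tested, 0 passed the limma test between genotypes. The authors' deposited table for microglia, with adjusted p under 0.05, held Junb, Zfp36, Dusp1, Ier3, Jun and S100a8, all lower in KO. It also held Cldn11 and Mag, both higher in KO. Immediate-early genes, which respond to cell handling and to stimulation, summed to 4072 to 5666 FPKM in WT and to 2637 to 3062 FPKM in KO, with 6 of 12 lower in every KO library. Oligodendrocyte markers summed to 1069 to 1820 FPKM in WT and 1609 to 2632 FPKM in KO, with 5 of 8 higher in every KO library and sums that overlapped. Neutrophil markers summed to 131 to 264 FPKM in WT and 55.8 to 118 FPKM in KO, 2 of the 7 tested lying lower in every KO library, and Elane was listed at 0 in 2 libraries. Over all genes, 8.41% lay higher and 7.48% lower in every KO library. The part of these, of Xist and of sex in the values of the 10 genes was not tested. With microglia scaled to the sum of their markers P2rx4 differed by 0.43, Siglech by 0.26 and Cx3cr1 by −0.27.

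WT microglia varied more than KO microglia. The coefficient of variation was higher in WT for 9 of the 10 genes, P2ry12 at 20.9% against 7.30%, Tmem119 at 41.3% against 6.18% and Entpd1 at 67.4% against 8.39%. Siglech, at 8.38% in WT and 11.8% in KO, was the exception. The same direction held for 74.8% of all genes. Within WT, library 1 was the highest for 5 genes (P2ry6, P2rx4, P2rx7, Tmem119 and Entpd1) and the lowest for P2ry12, P2ry13, Cx3cr1, Siglech and Gpr34. Library 2 was the highest for Cx3cr1 and the lowest for Entpd1. Library 3 was the highest for P2ry12, P2ry13, Siglech and Gpr34 and the lowest for P2ry6, P2rx4, P2rx7 and Tmem119. Over all genes, library 1 was the highest or the lowest of the 3 for 72.8%, library 2 for 60.6% and library 3 for 73.6%.

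The 2 neighbouring pairs were compared library by library. P2ry12 exceeded P2ry13 by 3.06, 3.35 and 3.94 times in WT microglia and by 3.27, 3.29 and 3.06 times in KO, so the groups overlapped. P2rx7 exceeded P2rx4 by 3.88, 3.50 and 3.33 times in WT and by 2.23, 3.03 and 2.66 times in KO. Each KO ratio lay below each WT ratio in the P2X pair, of which P2rx4 alone also lay higher in every KO library. Groups did not overlap for 15.9% of all single genes tested, and no such share was computed for ratios.

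All 10 genes were higher in microglia than in astrocytes in both genotypes. In WT, 10 of 10 passed the limma test, where 29.1% of 16258 genes were higher and 24.5% lower in microglia; under quantile normalisation those counts, 4737 and 3980, became 3764 and 4930. In KO, 10 of 10 passed, where 31.9% of genes were higher and 25.1% lower; 5181 and 4073 became 4083 and 5160. The median difference of the 10 genes was 6.97 on the log2 scale in WT and 7.03 in KO, against 0.21 and 0.24 over all genes. Quantile normalisation moved the median of all genes in WT to −0.065 and that of the 10 to 6.30. The genes were listed as microglial to begin with, and the comparison shows how far each is separated.

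P2ry12, Cx3cr1, Siglech, Tmem119, Gpr34, P2ry6 and P2ry13 had the widest separation. In WT, P2ry12 was at 7.81 (SE 0.21, limma adjusted p = 2.99e-09), Cx3cr1 at 7.75, Siglech at 7.68, Tmem119 at 7.67, Gpr34 at 7.09, P2ry6 at 6.84 and P2ry13 at 6.81. In KO they were Tmem119 at 7.78, P2ry12 at 7.68, Cx3cr1 at 7.65, P2ry13 at 7.43, Siglech at 7.09, P2ry6 at 6.98 and Gpr34 at 6.85. For P2ry12 the fold on this scale was 224 in WT (95% interval 163 to 307) and 206 in KO (154 to 275).

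P2rx7, Entpd1 and P2rx4 were separated far less. P2rx7 differed by 3.24 in WT (SE 0.37, limma adjusted p = 3.36e-05) and 3.57 in KO (SE 0.34, limma adjusted p = 7.67e-06). Entpd1 differed by 3.23 in WT (SE 0.90, limma adjusted p = 0.0112) and 5.11 in KO (SE 0.83, limma adjusted p = 0.000371), and the WT value was 1.77 with an adjusted p of 0.0506 without WT astrocytes 1. P2rx4 differed by 2.02 in WT (SE 0.47, limma adjusted p = 0.00416) and 1.38 in KO (SE 0.43, limma adjusted p = 0.0192). The KO call of P2rx4 was lost without KO astrocytes 3 (1.12, adjusted p = 0.0623), KO astrocytes 4 (1.17, 0.0604), KO microglia 1 (1.34, 0.0541) or KO microglia 2 (1.35, 0.0536).

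Levels in astrocyte libraries were then set against those of microglia, as the share of the mean microglia level of the same genotype. The 10 microglia markers gave mean shares of 0.117% to 1.22% in WT astrocytes (median 0.463%) and 0.329% to 0.898% in KO astrocytes (median 0.479%). P2ry12 stood at 0.284% ± 0.143 (SD, n = 3) in WT and 0.345% ± 0.158 (SD, n = 4) in KO, and Cx3cr1 at 0.230% ± 0.0896 and 0.285% ± 0.177. With P2ry13, P2ry6, Tmem119, Siglech and Gpr34, the 7 genes ranged from 0.0385% to 0.504% in WT and from 0.180% to 0.488% in KO, at or under the shares of the markers.

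P2rx4, P2rx7 and Entpd1 stood above the highest marker in each of the 7 astrocyte libraries. P2rx4 in astrocytes was 9.43, 2.71 and 1.96 FPKM in WT libraries 1, 2 and 3, and 22.4, 7.70, 7.09 and 7.69 FPKM in KO libraries 1 to 4. Its share of the microglia level was 20.8% ± 18.2 in WT (SD, n = 3) and 35.6% ± 23.7 in KO (SD, n = 4). P2rx7 was 4.02, 14.3 and 4.84 FPKM in WT and 6.88, 4.29, 5.26 and 5.69 FPKM in KO, a share of 9.51% ± 7.04 and 6.66% ± 1.29. Entpd1 was 8.72, 126 and 23.9 FPKM in WT and 31.9, 3.29, 10.3 and 7.78 FPKM in KO, a share of 11.97% ± 14.4 and 2.88% ± 2.75.

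Single libraries set the upper ends of these 3 genes. KO astrocytes 1 had the highest P2rx4, at 22.4 FPKM, and it also had the highest sum of the 7 neuron markers, 359.9 FPKM against 35.3 to 155 FPKM in the other 6 libraries, and of the border macrophage markers, 29.1 FPKM against 9.52 FPKM or less. WT astrocytes 2 had the highest Entpd1 and P2rx7, at 126 and 14.3 FPKM, and the highest sum of the 6 endothelial markers, 60.6 FPKM against 15.6 to 37.7 FPKM. None of the neuron and endothelial markers was at 0 in an astrocyte library, while Cd209f was at 0 in all 7. Oligodendrocyte markers summed far higher, to 4530 to 8160 FPKM in the 7 libraries, and were highest in KO astrocytes 4. They stood at 6160 FPKM in KO astrocytes 1 and at 5266 FPKM in WT astrocytes 2. The part of these cells in the 3 genes was not tested. Without the library named, P2rx4 shares in KO ran from 22.5% to 24.4%, and Entpd1 shares in WT were 1.98% and 5.41%, still above the highest marker of each library.

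**Figure D3:**
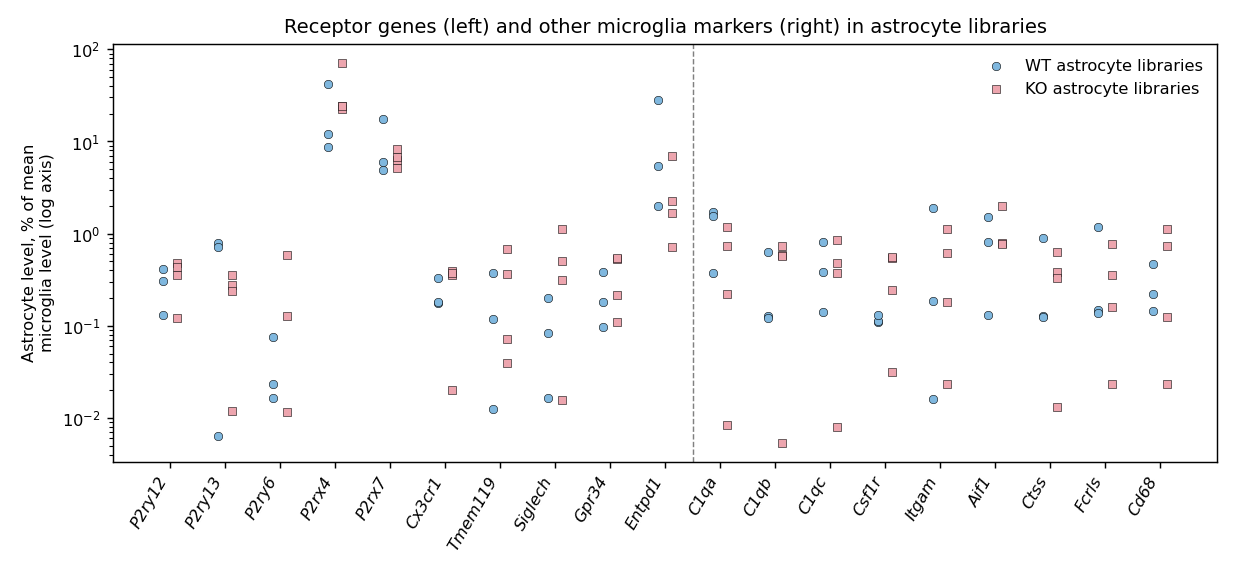
Level in each astrocyte library as a percent of the mean level in microglia of the same genotype, on a log axis, for the 10 genes (left of the dashed line) and 9 other microglia markers (right); values of 0 (P2ry6 and Aif1, 1 KO library each) are not drawn. P2rx4, P2rx7 and Entpd1 lie above the markers in each library, and the other 7 genes lie among or under them.

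KO and WT astrocytes were compared with age as a covariate. A mean of at least 1 FPKM over the 7 libraries, needed for the test, was reached by 8 of the 10 genes, while P2ry6 (0 to 0.932 FPKM) and Gpr34 (0.212 to 1.101 FPKM) were under it. None of the 8 passed, 0 had an unadjusted p under 0.05, and no pair of groups was free of overlap, where 0.0224% of 13397 genes passed, 4.19% had an unadjusted p under 0.05 and 4.68% did not overlap. Estimates ran from −1.62 for Entpd1 (interval −3.79 to 0.54) to 1.11 for P2rx4 (interval −0.15 to 2.37, limma adjusted p = 0.921), with a median of −0.058.

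Without WT astrocytes 2 the Entpd1 estimate was −0.65, and without KO astrocytes 1 the P2rx4 estimate was 0.81. Endothelial markers summed to 31.1 to 60.6 FPKM in WT and 15.6 to 23.1 FPKM in KO astrocytes, with 3 of 6 lower in every KO library and 0 of 6 past the test. The authors' deposited table for astrocytes listed 10 genes, and 0 of the 10 described here were among them.

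The difference between genotypes was also compared between the cell types, as the KO minus WT difference in microglia less that in astrocytes. None of the 10 genes passed and 0 had an unadjusted p under 0.05, where 0.141% of 16258 genes passed and 6.62% had an unadjusted p under 0.05. Entpd1 had the largest estimate, 1.88 (SE 1.17, interval −0.71 to 4.48, limma adjusted p = 0.817), which was 0.91 without WT astrocytes 2 and 3.13 without WT astrocytes 1. P2ry13 had the smallest p, at 0.61 (SE 0.29, interval −0.022 to 1.25, limma adjusted p = 0.756). P2ry13 stood at 3.19, 2.93 and 0.0259 FPKM in WT astrocytes and 1.12, 0.0475, 0.961 and 1.43 FPKM in KO, so its estimate rests on low values in astrocytes.

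The astrocyte libraries KO 2 and WT 3 came from day 9 and were compared with the 5 from day 12. P2ry12 stood at 1.55 and 1.85 FPKM at day 9 and at 4.33 to 6.13 FPKM at day 12 (median 5.51). P2ry13 stood at 0.0259 and 0.0475 FPKM at day 9 and at 0.961 to 3.19 FPKM at day 12 (median 1.43), and Siglech at 0.0586 and 0.0686 FPKM against 0.299 to 4.92 FPKM (median 1.37). In these 3 genes both day 9 libraries lay below all day 12 libraries, as they did for 8.27% of all genes tested.

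None of the 8 genes tested passed for age, where 0.097% of 13397 genes did. P2ry12 differed by −1.21 (SE 0.33, limma adjusted p = 0.353) and P2ry13 by −1.49 (SE 0.45, limma adjusted p = 0.406). These 2 had an unadjusted p under 0.05, as did 8.61% of all genes. All 8 estimates were below 0, with a median of −1.03 against −0.020 over all genes. The microglia markers were also lower at day 9 in the same libraries. Of these markers 0 of 10 passed for age, and 7 had an unadjusted p under 0.05. Their sum was 7.50 and 20.9 FPKM at day 9 and 57.8 to 83.3 FPKM at day 12, with 7 of 10 below all day 12 libraries, a median difference of −1.75 and Aif1 listed at 0 in 1 day 9 library. P2rx7 (4.29 and 4.84 FPKM at day 9, 4.02 to 14.3 FPKM at day 12) and P2rx4 (1.96 and 7.70, 2.71 to 22.4) overlapped between the ages. The part of microglia RNA in the age differences was not tested.

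**Figure D4:**
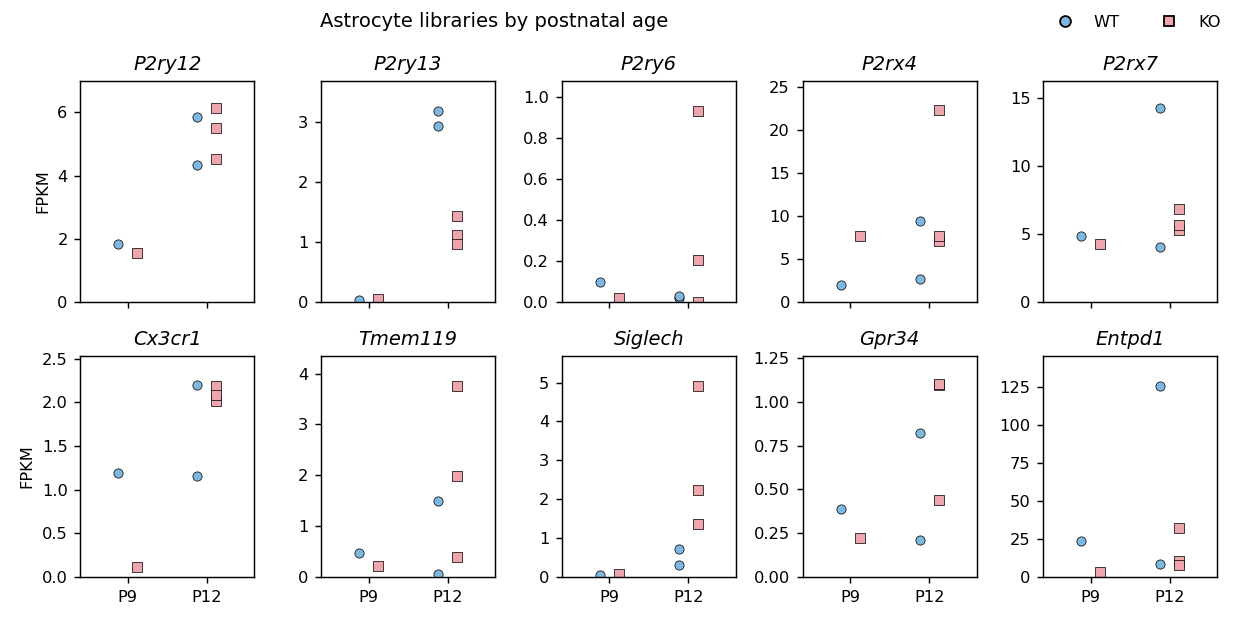
FPKM of the 10 genes in the 7 astrocyte libraries by postnatal age, each panel with its own axis from 0; circles are WT and squares KO, and each point is 1 library. P2ry12, P2ry13 and Siglech lie lower in both day 9 libraries than in any day 12 library, and the other 7 genes overlap.

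Other genes of nucleotide signalling were divided between the cell types. Of 14 other nucleotide and adenosine receptor genes, 6 passed the filter, of which 2 were higher and 3 lower in microglia in both genotypes. The adenosine A3 receptor gene Adora3 stood at 30.5 ± 10.03 FPKM in WT microglia and 0.0580 ± 0.0293 in WT astrocytes (SD, n = 3 each; difference 4.83). P2rx1, an ATP-gated channel gene, stood at 5.96 ± 0.420 FPKM in WT microglia and was listed at 0 in all KO astrocyte libraries. Lower in microglia was Adora1, the gene of the inhibitory A1 receptor, at 59.3 ± 19.99 FPKM in WT astrocytes and 1.61 ± 0.437 in WT microglia (difference −4.74), as were P2ry1, an ADP receptor gene, at 16.3 and 0.390 FPKM (−3.85) and Adora2b, a stimulatory adenosine receptor gene, at 15.9 and 0.668 FPKM (−3.33).

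Of 16 genes of nucleotide breakdown and adenosine handling in the table, 11 passed the filter, with 2 higher and 6 lower in microglia in both genotypes. Entpd2, which encodes a relative of the Entpd1 enzyme that cuts mainly ATP to ADP, stood at 65.7 ± 25.1 FPKM in WT astrocytes and 0.376 ± 0.602 in WT microglia (difference −5.72). Alpl, the gene of tissue-nonspecific alkaline phosphatase, was at 48.3 FPKM in WT astrocytes and 0.346 in WT microglia (−4.99). Adk, the adenosine kinase gene, was at 26.7 and 1.22 FPKM (−3.93), Entpd5 at 18.3 and 2.02 FPKM (−2.90) and Enpp2 at 57.8 and 11.7 FPKM (−1.95). All 8 oligodendrocyte markers were also lower in WT microglia, with differences of −2.67 to −1.85. The part of oligodendrocyte RNA in the values of these genes was not tested. Higher in microglia were Ada, the adenosine deaminase gene, at 15.1 FPKM and listed at 0 in WT astrocytes, and the nucleoside transporter gene Slc29a3 (177 against 55.7 FPKM, 1.42).

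ATP release genes were found on both sides. Of 7, WT microglia were higher in 2 and lower in 4, and KO microglia higher in 2 and lower in 3. The connexin genes Gja1 (491 FPKM in WT astrocytes, 2.00 in WT microglia, difference −7.60) and Gjb6 (137 and 1.96 FPKM, −5.83), both also among the astrocyte markers used here, the volume-regulated channel gene Lrrc8a (−1.91) and Panx2 (−2.20) were lower in WT microglia. The channel gene Calhm2 (2.57) and Slc17a9, the gene of the vesicular nucleotide transporter (1.97), were higher.

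**Figure D5:**
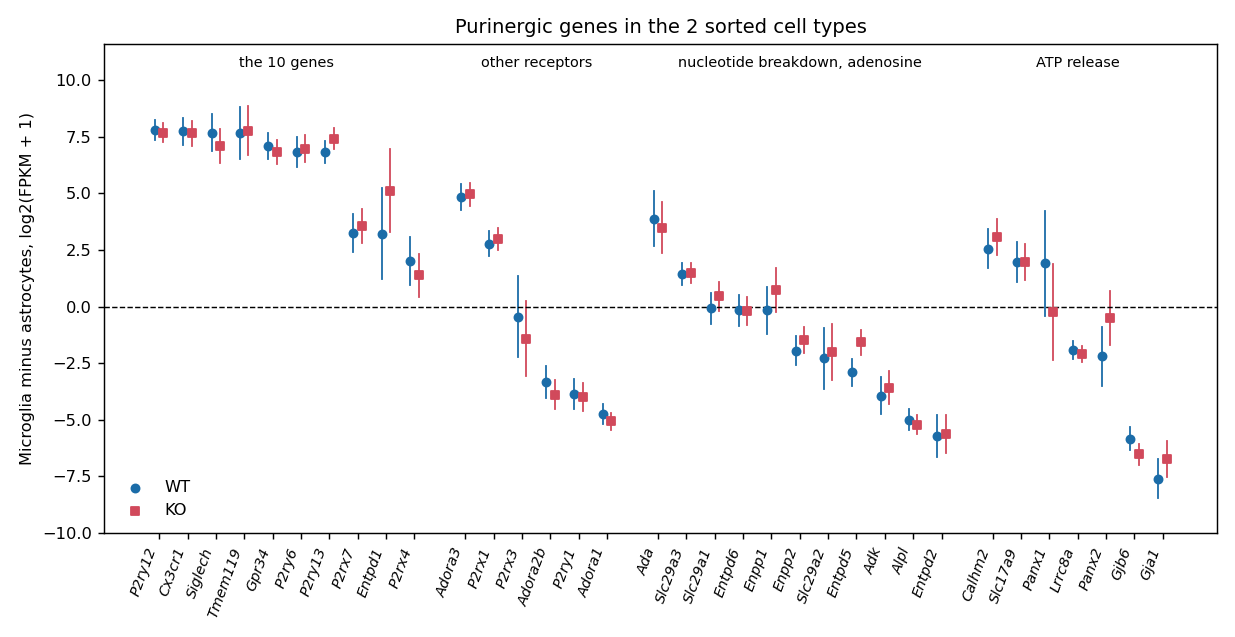
Difference between microglia and astrocytes on the log2(FPKM + 1) scale with its 95% interval, for the 10 genes and for 3 lists of other purinergic genes that passed the filter, in WT (circles) and KO (squares). The 10 genes lie between 1.38 and 7.81, whereas each of the other lists holds genes on both sides of 0.

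Signalling partners of the receptors were mostly on the microglial side, with 12 of 18 tested higher and 2 lower in WT and 12 higher and 1 lower in KO. Tyrobp, the adaptor gene of Siglech, stood at 1725 ± 297 FPKM in WT microglia and 2.66 ± 1.81 in WT astrocytes (difference 8.88). The subunit genes of the G protein-driven PI3-kinase, Pik3r5 (5.21) and Pik3cg (4.72), and the inflammasome genes Nlrp3 (3.84) and Il1b (3.55) were higher, as was the fractalkine-shedding protease gene Adam10 (2.53). Gnai2 (−0.98) and Gnai3 (−0.89), genes of inhibitory G proteins, were lower in WT microglia. Of 25 other homeostatic microglia genes 23 were higher and 2 lower in both genotypes. Among the 23 were Olfml3 (6.87), Ltc4s (7.94) and Selplg (7.94), and the 2 lower were Sparc (−0.88) and Adgrg1 (−1.47), which astrocytes held at 4041 and 287 FPKM.

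The same lists were read between genotypes in microglia, and no gene of them passed the limma test. Casp1, the inflammasome protease gene downstream of P2rx7, stood at 22.8, 17.9 and 20.6 FPKM in WT and 12.4, 11.3 and 13.6 FPKM in KO (difference −0.67, SE 0.17, limma adjusted p = 0.519). The authors' deposited table held Casp1, at 1257 mean normalised counts for WT against 707 for KO (adjusted p 0.00970). Il1b stood at 16.2, 7.48 and 13.2 FPKM in WT and 7.43, 5.50 and 6.86 FPKM in KO (−0.75, limma adjusted p = 0.596). WT and KO values of both did not overlap, and 4 of the 18 signalling partners tested lay lower in every KO library, against 7.48% of all genes.

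Among the other homeostatic genes, the transporter gene Slco2b1 stood at 245, 191 and 140.3 FPKM in WT and 286, 400.1 and 322 FPKM in KO (0.83, limma adjusted p = 0.553). Of the 25, 4 lay higher and 1 lower in every KO library, against 8.41% and 7.48% of all genes, and their median difference was 0.091. In the breakdown list Entpd5 had the smallest p (0.99, limma adjusted p = 0.553) and in the release list Gjb6 (−0.81, limma adjusted p = 0.596), which was also in the authors' deposited table with an adjusted p of 0.0140.

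Genes with the most similar profile were found by the root mean square distance of centred log2(FPKM + 1) values over the 13 libraries, among 16258 genes. Ltc4s was the nearest to Tmem119 (0.50), Ly86 to Siglech (0.42), Bin2 to P2ry13 (0.41), Olfml3 to P2ry6 (0.28) and Fyb to Gpr34 (0.28). P2rx7 was nearest to Mef2a (0.29), which held a mean of 164 FPKM in microglia and 17.3 in astrocytes, and P2rx4 to Arhgap17 (0.44), at 36.3 and 7.57 FPKM. Entpd1 had the farthest nearest gene, Gm11483 (0.70). These distances describe 13 libraries that share 2 cell types, and most of each profile is the step between them.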

How the data were processed

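Libraries were made by NuGEN RNA-Seq V2 from RNA of sorted cells, per the labels' protocols. Build GRCm38 and the tools Bowtie2 2.2.3, TopHat2 2.0.11, Cufflinks, Cuffnorm, HTSeq 0.6.1p1, FastQC and DESeq2 are named, without settings, per the submitters' processing notes. The authors deposited FPKM for 39171 genes in 13 libraries. For each cell type they also deposited mean normalised signal (counts) per genotype, log2 fold changes, a test score and a p-value and adjusted p of listed genes, per the file headers; these were only copied. Depth in reads is unknown, so no counting interval was computed.

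The genes were found by GENCODE (mouse release M21) identifiers, of which 37691 matched. Two-sided tests of log2(FPKM + 1) used limma 3.58.1 (lmFit, eBayes with trend; R 4.3.3) over genes with a mean of at least 1 FPKM. A gene passed where its Benjamini-Hochberg adjusted p was under 0.05. Microglia were fitted alone, astrocytes alone with age, and cell types and the interaction in all 13 libraries with age. This scale understates differences of low genes. The script was tested on simulated data with known changes. A change of 1 on the log2 scale passed for 4% of changed genes between genotypes in microglia and 3% in astrocytes. Between WT cell types it passed for 6%. A change of 2 passed for 49%, 47% and 53%, in the same order, so most changes of 1 would be missed. Single genes had exact permutation tests in SciPy 1.17.1 on Python 3.11.15.

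The 10 genes and all lists were chosen with earlier results of these data known. Named besides these were, per list, up to 6 genes past the threshold by smallest p, or the 2 smallest p where none passed, the nearest profiles, overlapping genes and markers; Sparc, Adgrg1 and Slc29a3 were added to complete small counts. A few genes that these rules name are not reported here. Alternatives were another pseudocount, filter, scaling, fit without trend, replicate block, subset by age or Xist, and leaving out each library.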

Additional observations from a re-analysis of the deposited data

Results flagged for a closer look

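In KO astrocytes, P2rx4 stood at 22.4 FPKM in library 1 and at 7.09 to 7.70 FPKM in the other 3. The gap of library 1 to the nearest library was 0.960 of the range of the group. The same library had the highest sums of neuron markers, at 359.9 FPKM, and of border macrophage markers, at 29.1 FPKM, of the astrocyte libraries.

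In the same group, Cx3cr1 stood at 0.113 FPKM in library 2 and at 2.01 to 2.19 FPKM in the other 3, and the gap was 0.918 of the range. Library 2 is the one KO astrocyte library of day 9, and its microglia markers summed to 7.50 FPKM against 59.0 to 83.3 FPKM in the other 3. Chance marks about 1 in 20 groups this way, and groups of 3 could not be examined.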

How the results depend on the processing

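None of the 10 genes passed for genotype in either cell type, for the interaction or for age under any alternative run. All 10 kept their calls between cell types under each alternative that kept all libraries, and the calls lost by leaving out 1 library are those of Entpd1 and P2rx4 given with the results. The median difference of the 10 genes under quantile normalisation was 0.31 in KO against WT microglia (0.15 as reported) and 6.30 between WT cell types. With a pseudocount of 0.1 it was 8.05 between WT and 7.94 between KO cell types. Leaving out 1 library gave medians of 0.026 to 0.22 for genotype in microglia, −0.27 to 0.16 in astrocytes, −1.24 to −0.54 for age, 6.86 to 7.10 and 6.93 to 7.19 between WT and KO cell types, and −0.19 to 0.099 for the interaction.

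Differences near 0 changed sign, and the cause was not tested. In microglia, quantile normalisation gave P2ry12 0.19, P2ry13 0.19 and Gpr34 0.039, and scaling to the markers gave P2rx7 −0.0022. Leaving out 1 library gave −0.28 to 0.028 for P2ry12, −0.098 to 0.027 for P2ry13, −0.21 to 0.031 for Gpr34, −0.11 to 0.20 for P2rx7 and −0.079 to 0.77 for Entpd1. In astrocytes, P2ry12 was −0.010 with a pseudocount of 0.1 and −0.029 under quantile normalisation, and Cx3cr1 was 0.24 in day 12 libraries alone. Leaving out 1 library gave −0.13 to 0.089 for P2ry12, −0.42 to 0.24 for Cx3cr1, −0.74 to 0.22 for P2rx7 and −0.038 to 0.74 for Tmem119. For the interaction, a pseudocount of 0.1 gave P2ry6 −0.37, Cx3cr1 0.28 and Tmem119 −0.40, quantile normalisation gave P2ry12 0.27, Gpr34 0.031 and Cx3cr1 0.19, and day 12 libraries alone gave P2ry6 −0.0081 and Tmem119 −0.19. Leaving out 1 library gave −0.092 to 0.33 for P2ry6, −0.23 to 0.59 for Tmem119, −0.28 to 0.024 for P2ry12, −0.46 to 0.20 for Cx3cr1 and −0.18 to 0.78 for P2rx7.

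Deviations of same-numbered KO and WT libraries had r of 0.028, 0.0099 and 0.023 in microglia and 0.026, −0.072 and −0.037 in astrocytes. Libraries of unlike number had r of −0.022 to −0.00013 in microglia and −0.078 to 0.12 in astrocytes. The numbers were treated as names, and a link by litter or batch was not tested. With the replicate block, 0 of the 10 passed for genotype, the median in microglia stayed at 0.15 and Tmem119 had an interaction of −0.17. Over all genes the 13 calls in microglia became 3 with the block. They became 361, of which 310 were lower in KO, among libraries with Xist under 1 FPKM, where the lone WT library is assumed to vary like the KO libraries; 0 of the 10 genes were called. With no counts, the depth behind the low astrocyte values is unknown.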
